A study of Homo sapiens with 8 samples.

Results

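The highest peaks of KDM2A that were also narrow were taken from a ChIP-seq peak list of human neural progenitor cells. A peak was a member when the authors' Pileup, the height of stacked immunoprecipitated fragments, was 20 or more and its length was under 600 bp. Peaks on chromosomes 1 to 22 were used, leaving out the stretches beside the centromeres of chromosomes 4, 5, 11, 14 and 21 that the rule names. On the other chromosomes nothing was left out, so stretches beside their centromeres remained in. This gave 1323 members of 472878 KDM2A peaks on that sequence (0.280%), out of 504724 peaks in the whole list. Members were thus chosen by Pileup and length, and every other value of the same peak call (fold, FDR, local background) describes them without testing anything.

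The cells derive from the human embryonic stem cell line H9, an established line. The stem cells were infected with lentivirus (multiplicity of infection 20), selected with 1 µg/ml puromycin for 48 hours and then induced to neural progenitors. The groups used here are H3K36me2 in cells with the KDM2A hairpin sh1, H3K36me2 in cells with the hairpin sh4, H3K36me2 in control cells (NC), and KDM2A itself in NC cells. Infection and puromycin selection were common to all groups, NC included. Each group is 1 library, so no value has a spread between cultures and no test between groups was possible. KDM2A in sh1 or sh4 cells was not analysed here. Peak lists hold no expression values, so neither the progenitor identity nor the loss of KDM2A could be checked from them.

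KDM2A is an enzyme of the Jumonji family that removes methyl groups from mono- and dimethylated lysine 36 of histone H3. It binds unmethylated CpG dinucleotides through a CXXC zinc finger and is best known from CpG islands at gene starts. It has also been described at ribosomal RNA genes and at heterochromatin around centromeres. H3K36me2 is deposited by the NSD enzymes and ASH1L, and usually covers broad stretches between and inside genes. The study describes KDM2A at transcription start sites of neural genes, so the position of its highest peaks relative to genes and to H3K36me2 is what the comparisons below address.

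Promoters overlapped by a member are shown first because CpG content is what the KDM2A zinc finger reads. RefSeq promoter windows of GRCh38.p14 run from 250 bases before to 50 bases after a gene's start, and 15 of the 33725 windows used overlapped a member. The 5 below belong to the protein-coding genes CTAGE15, TRIM74, FANK1 and SPDYE3 and to the long non-coding RNA ANKRD20A4-ANKRD20A20P. They span the range from few to many CG dinucleotides, which are in capitals, and were chosen after their values were seen. All are 5′ to 3′ on the strand of the gene.
CTAGE15: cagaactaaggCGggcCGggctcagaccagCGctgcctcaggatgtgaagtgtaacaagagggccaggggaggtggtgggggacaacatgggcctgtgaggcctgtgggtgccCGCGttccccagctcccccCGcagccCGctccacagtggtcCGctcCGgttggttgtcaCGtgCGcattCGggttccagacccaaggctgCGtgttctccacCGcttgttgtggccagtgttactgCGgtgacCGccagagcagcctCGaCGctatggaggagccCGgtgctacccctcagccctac
TRIM74: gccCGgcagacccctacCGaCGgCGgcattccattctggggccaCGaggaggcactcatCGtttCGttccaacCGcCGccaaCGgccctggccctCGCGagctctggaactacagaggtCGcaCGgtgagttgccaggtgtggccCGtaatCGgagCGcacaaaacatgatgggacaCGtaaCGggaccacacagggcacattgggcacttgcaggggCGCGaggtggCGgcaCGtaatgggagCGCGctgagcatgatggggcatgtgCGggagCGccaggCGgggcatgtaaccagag
FANK1: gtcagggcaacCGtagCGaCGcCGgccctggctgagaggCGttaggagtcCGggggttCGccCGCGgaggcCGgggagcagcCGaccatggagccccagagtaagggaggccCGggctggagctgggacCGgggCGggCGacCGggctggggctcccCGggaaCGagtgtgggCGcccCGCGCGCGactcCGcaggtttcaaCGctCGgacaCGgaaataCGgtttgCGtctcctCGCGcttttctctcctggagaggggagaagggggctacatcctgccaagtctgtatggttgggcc
SPDYE3: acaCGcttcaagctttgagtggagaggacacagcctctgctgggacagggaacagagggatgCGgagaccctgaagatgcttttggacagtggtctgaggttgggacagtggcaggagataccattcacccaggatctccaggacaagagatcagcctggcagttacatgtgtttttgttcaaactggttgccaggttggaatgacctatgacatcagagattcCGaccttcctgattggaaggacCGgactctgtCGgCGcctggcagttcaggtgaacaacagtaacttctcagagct
ANKRD20A4-ANKRD20A20P: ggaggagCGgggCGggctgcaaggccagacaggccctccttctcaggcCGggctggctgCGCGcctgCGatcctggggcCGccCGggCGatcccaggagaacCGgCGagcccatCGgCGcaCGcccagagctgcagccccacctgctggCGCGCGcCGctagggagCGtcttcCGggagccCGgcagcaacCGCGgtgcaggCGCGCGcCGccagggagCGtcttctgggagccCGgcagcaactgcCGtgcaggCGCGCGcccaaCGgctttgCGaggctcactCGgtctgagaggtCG
The CTAGE15 window is chr7:143571551-143571850 on the plus strand. It held 19 CG dinucleotides and shared 202 bases with a member of Pileup 31 and fold 4.84. The TRIM74 window is chr7:72969417-72969716 on the minus strand, with 28 CG dinucleotides and 221 bases shared with a member of Pileup 21 and fold 4.03. The FANK1 window is chr10:125896556-125896855 on the plus strand, with 31 CG dinucleotides and 158 bases shared with a member of Pileup 20 and fold 2.74. Of all windows, 42.9% held at least as many CG dinucleotides as CTAGE15, 26.2% as many as TRIM74 and 20.7% as many as FANK1.

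The SPDYE3 window is chr7:100307452-100307751 on the plus strand. It held 6 CG dinucleotides and shared 141 bases with a member of Pileup 26 and fold 2.17. The ANKRD20A4-ANKRD20A20P window is chr9:64369144-64369443 on the plus strand. It held 37 CG dinucleotides, the most of the 15, and shared 275 bases with a member of Pileup 28 and fold 7.51. CG reads the same on both strands, and 96.0% of all windows held at least 1. The 15 overlapped windows held 2 to 37 CG dinucleotides with a median of 19, against a median of 21 in the 6103 windows overlapped by other KDM2A peaks under 600 bp and 14 in all windows. Windows on chromosome 8, which has 80 members, were not used here. Off it, 15 of 1243 members overlapped a window (1.21%, exact 95% interval 0.677 to 1.98%), against 1.21% of the other peaks. The high peaks thus overlapped promoter windows, those of non-coding genes included, about as often as the other peaks, over windows rich or poor in CG. Close to protein-coding genes alone they were less frequent. Within 500 bp of a listed start lay 0.644% of them (0.278 to 1.26%), against 1.43% of the other peaks. The share was 1.16% in peaks under 600 bp with a Pileup of 15 to 19, which lies inside the members' interval.

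The members had a median Pileup of 24 (quartiles 21 and 31, highest 235), against a median of 8 and a highest value of 19 in the 465320 other peaks under 600 bp on the same sequence. Pileup, fold and FDR are the authors' own values per peak. The fold is the ratio of Pileup to a local background estimated from the input, each with 1 added. It had a median of 2.51 in members (range 1.23 to 8.83), against 2.33 in the other peaks (range 1.42 to 6.31). Thus the members were far higher than the other peaks by height and little higher by fold. The authors' FDR was under 0.05 in 786 members (59.4%), against 2.71% of the other peaks, a contrast the rule itself bears on.

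The local background, recovered from Pileup and fold, had a median of 9.53 fragments in members, against 2.60 in the other peaks. In 1106 members it was 4 or more (83.6%), against 3.35% of the other peaks. In 790 members it was 8 or more (59.7%), against 0.0767% of the other peaks. A low peak cannot be listed over a high background, so the values of the other peaks are limited from above, and their highest background was 12.4. Members are limited in the same way by their own Pileup, which has no upper bound in the rule. Their background was at most 13.3 at a Pileup of 20 and reached 144 fragments at the highest Pileup. Of the 2871 peaks under 600 bp with a Pileup of 15 to 19, 53.9% had a background of 4 or more. The contrasts in background are thus tied to the rule. In 76.1% of members the background had been taken from the shortest window, 151 bp around the peak, against 30.0% of the other peaks. At most members the input itself was therefore stacked at the same place, and the part of the input in the height of these peaks was not tested.

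The members fell into a low and a high class of background, split at 4 after the values had been seen. The 217 members with low background had Pileups of 20 to 33 and folds of 4.36 to 8.83 (median 5.94). The 1106 members with high background had Pileups of 20 to 235 and folds of 1.23 to 6.21 (median 2.28). All 286 members with a Pileup above 33 belonged to the high class, so the tallest peaks stood on the most input.

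**Figure D1:**
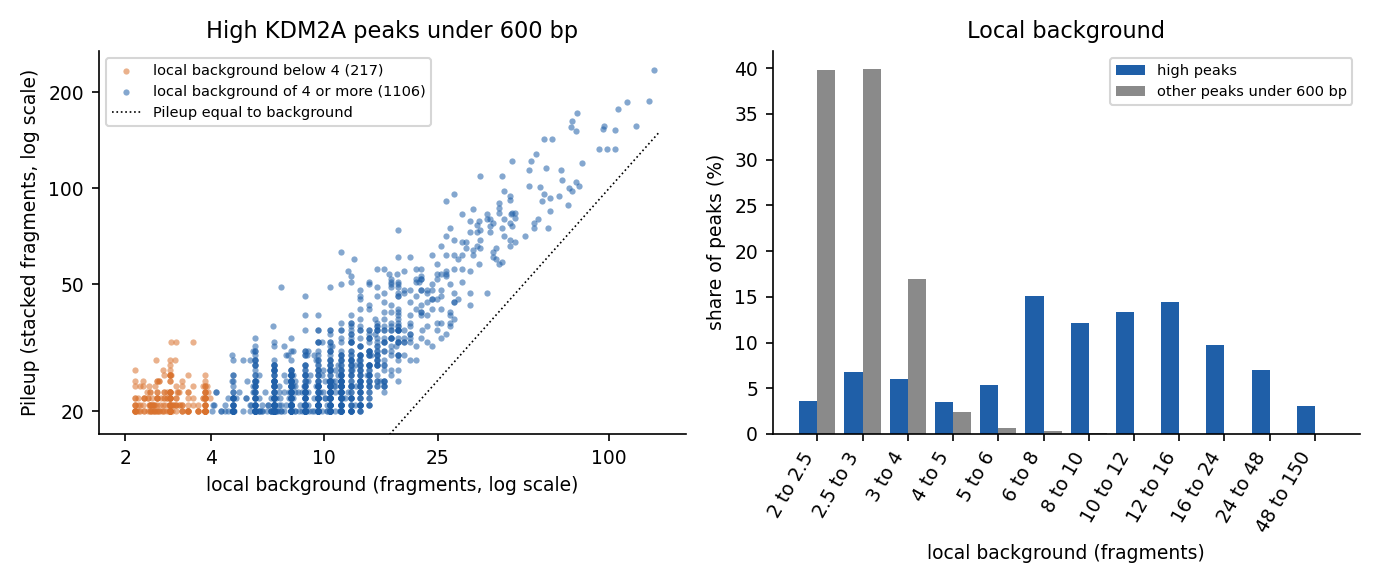
Left, Pileup (stacked fragments, log scale) against local background (fragments, log scale) for each of the 1323 high KDM2A peaks under 600 bp, with the dotted line where both are equal. Right, share of high peaks and of the 465320 other peaks under 600 bp in each range of local background. The 217 peaks with background below 4 stay at or under a Pileup of 33, and Pileup climbs along the line in the other 1106.

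The 15 members of highest Pileup show this. The highest lay inside HFM1, a helicase of meiotic crossing over, at chr1:91387308-91387472. Its Pileup of 235 stood on a local background of 144, which is 151 input fragments, and its fold was 1.63. Pileup over background was 1.63 there, with an exact 95% interval of 1.33 to 2.02 that covers counting error only. A member at chr1:143195013-143195253 had a Pileup of 188 over 138, and its neighbours at chr1:143192821-143193157 and chr1:143231375-143231550 had 177 over 108 and 163 over 74.3. Their nearest protein-coding gene, the histone gene H3-7, was 670924 to 709397 bp away. All 4 of these peaks stood on a background of 74.3 or more.

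Chromosome 10 gave 4 of the 15. Pileups of 186, 157 and 154 lay within 1 cluster at chr10:42073489-42086664, whose nearest protein-coding gene was the zinc finger gene ZNF33B, 487582 to 500600 bp away. The other chromosome 10 member, at chr10:133688115-133688376, had a Pileup of 133 and lay 3053 bp from DUX4L20, a copy of the DUX4 homeobox gene. A member at chr3:75669093-75669379 had a Pileup of 152 and overlapped another such copy, DUX4L26, 2063 bp from the end of FRG2C. Chromosome 6 held Pileups of 172, 143 and 143, at folds of 2.21, 2.40 and 2.25, more than 1 Mb from PRIM2, the large subunit of DNA primase. The others were a Pileup of 157 on chromosome 16 (fold 1.26), 156 on chromosome 17 (fold 2.11) and 151 on chromosome 7 (fold 1.97). None of the 15 had a fold above 2.40. How near they lie to a centromere was not examined here.

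By chromosome, members were 1.38% of the KDM2A peaks of chromosome 22 (115 of 8349, exact 95% interval 1.14 to 1.65%), against 0.280% over all. Chromosome 9 followed with 0.695% (149 members, 0.589 to 0.816%) and chromosome 20 with 0.546% (74 members, 0.429 to 0.685%). The intervals of chromosomes 9 and 20 overlap each other and neither reaches that of chromosome 22. Chromosome 14 had 0.429%, chromosome 15 had 0.411% and chromosome 1 had 0.396% with 167 members, the largest number. At the other end, chromosome 21 had 2 members of 5368 peaks (0.0373%) and chromosome 11 had 18 of 23062 (0.0781%), both after the rule had left out their stretches beside the centromere. The intervals cover counting error and treat neighbouring peaks as independent, which they are not.

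On several chromosomes the members gathered in few megabases. On chromosome 22, 47 of the 115 members lay in the single megabase that starts at 11 Mb, where 170 peaks were listed in all. On chromosome 20, 31 of 74 lay in the megabase from 29 Mb, and on chromosome 8, 35 of 80 in that from 85 Mb. On chromosome 14, 26 of 65 lay in the megabase from 17 Mb, next to the stretch the rule leaves out. Members with low background were spread more evenly, from 0.0221 to 0.0958% of the peaks of each chromosome.

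**Figure D2:**
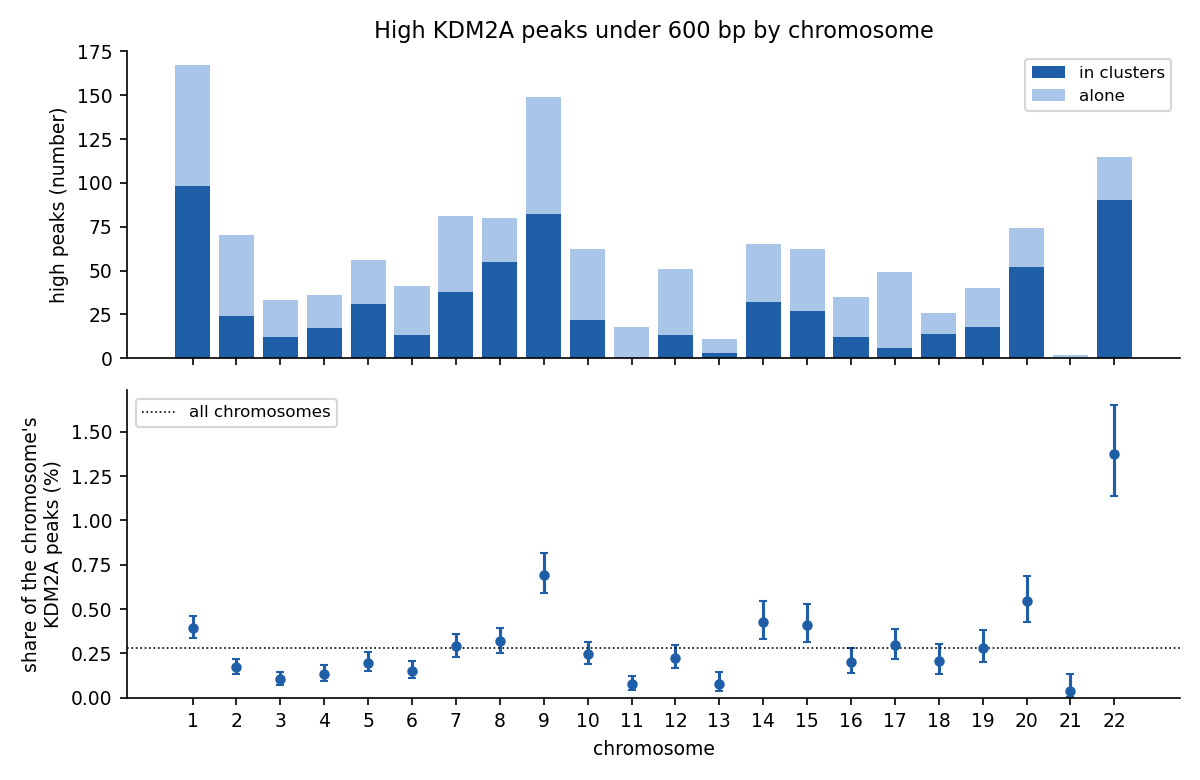
Top, number of high KDM2A peaks under 600 bp on each of chromosomes 1 to 22, split into those in clusters (dark) and alone (light). Bottom, the same peaks as a share of all KDM2A peaks of the chromosome, with exact 95% intervals for counting error and the share over all chromosomes (0.280%) dotted. Chromosome 22 stands highest at 1.38%.

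Members joined into a cluster when the gap between neighbours was 10 kb or less. Of the 1323 members, 659 lay in 175 clusters (49.8%, 47.1 to 52.5%) and 664 lay alone. Most clusters were small, 76 of 2 members and 32 of 3, and the 8 with most members are described here. The last of them had 9 members, as did 2 others, and was taken for its larger summed Pileup. Clustering went with background: 651 of the 1106 members with high background were clustered (58.9%, 55.9 to 61.8%), against 8 of the 217 with low background (3.69%, 1.60 to 7.13%).

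The largest cluster held 20 members at chr22:11016994-11057605, with Pileups of 20 to 38 and no annotated gene within 5 kb. Its members lay a median of 1141 bp apart, and 20 of the 22 KDM2A peaks in that span were members. The second, 18 members at chr8:85769505-85823807, ran through copies of REXO1L, genes and pseudogenes related to an RNA exonuclease. Its Pileups were 23 to 106 over local backgrounds of 10.5 to 74.3. A further 10 members with Pileups of 32 to 109 lay at chr8:85645410-85663965, over REXO1L8P, REXO1L3P and REXO1L1P, where every listed KDM2A peak was a member.

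Chromosome 9 had 2 of the 8. One held 14 members at chr9:62827117-62875258, by the pseudogene PTGER4P2 and the long non-coding RNA LERFS, with Pileups of 20 to 26. The other held 10 members at chr9:66046833-66071025, by the pseudogene CYP4F59P, with Pileups of 20 to 31. On chromosome 1, 12 members at chr1:2654009-2683026 lay inside TTC34, a gene for a tetratricopeptide repeat protein, with Pileups of 21 to 46 and folds of 1.69 to 4.91. The last of the 8 held 9 members at chr14:16350494-16375493, with Pileups of 23 to 102, no gene within 5 kb and the olfactory receptor gene OR11H12 2238124 bp away. None of the members of these 8 clusters lay in an H3K36me2 region of sh1, sh4 or NC. Of all 659 clustered members only 13 did in at least 1 library (1.97%), so no contrast with the other clusters is drawn.

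**Figure D3:**
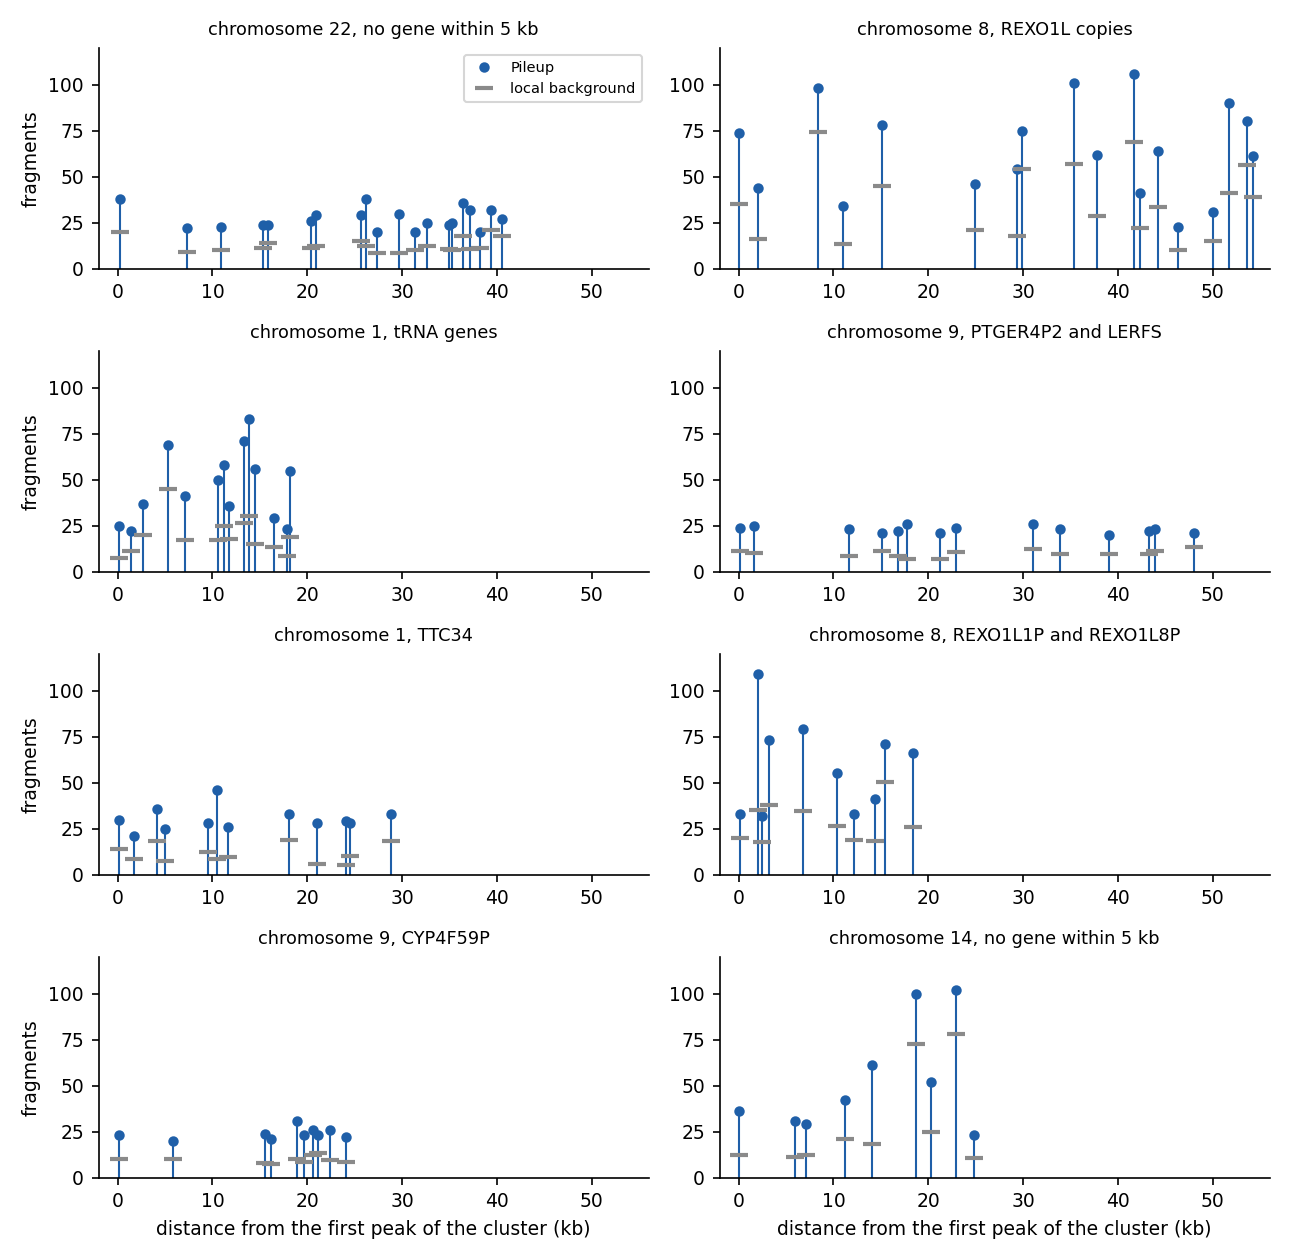
Pileup (blue points) and local background (grey dashes), in fragments, of each high KDM2A peak in the 8 clusters with most members (ties taken by summed Pileup), by distance from the first peak of the cluster (kb). Both scales are the same in all panels. The REXO1L clusters on chromosome 8 reach 106 and 109, and in every panel the background stands well above the 2.60 of other peaks.

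The cluster of 14 members at chr1:161440883-161459141 ran through transfer RNA genes, which RNA polymerase III transcribes. It lay 55445 bp from FCGR2A, an immunoglobulin receptor gene, and 3 more members followed within the same array. The annotation lists 31 tRNA genes from chr1:161422093 to 161612029, and the 17 members there lay a median of 423 bp from one, 1825 bp at most. The tallest, at chr1:161454524-161455024 over TRE-CTC1-3 (a glutamate tRNA gene), had a Pileup of 83 over 30.5. Another, at chr1:161455161-161455656 over the aspartate tRNA gene TRD-GTC2-3, had a Pileup of 56 over 15.2 and the highest fold of the array, 3.51.

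The array repeats with a period of 7380 to 7411 bp, each unit opening with a copy of TRE-CTC1. The units from TRE-CTC1-2 and TRE-CTC1-3 held 5 members each, with Pileups of 36 to 71 and 23 to 83. The unit from TRE-CTC1-4 held none, and that from TRE-CTC1-5 held 3, with Pileups of 50 to 75. No other KDM2A peak under 600 bp lay in any of these 4 units. How reads that match several units were placed, and whether duplicate reads were removed, is not given in the sources used here. How the Pileup divides between units is therefore uncertain. Over the whole sequence, 13 members lay within 500 bp of a tRNA gene (0.983%, 0.524 to 1.67%), against 0.0249% of the other peaks. Most of the 13 belong to the array described here, and all lay on chromosomes 1 and 6. The share is therefore mainly that of 1 array, and its interval treats neighbouring members as independent.

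Multicopy gene families held a share of the members. The 16 families or single genes counted here were chosen after the values were seen and overlap by position. They include the tRNA genes, with 23 members. In or within 2 kb of one lay 184 members (13.9%, 12.1 to 15.9%), against 0.302% of the other peaks, a contrast that the choice of families bears on. GUSBP pseudogenes, related to lysosomal beta-glucuronidase, had 19 members, all on chromosome 5, beside 116 other peaks. NBPF genes, which encode repeated Olduvai domains, had 17 on chromosome 1 beside 190 other peaks. FAM90A genes had 16 on chromosome 8 beside 45 other peaks. DUX4 and its copies had 14 members on 5 chromosomes beside 41 other peaks, with the widest range of Pileup, 22 to 152. REXO1L copies had 12 members and only 2 other peaks, so 85.7% of their KDM2A peaks were members. The FRG1 and NPIP families had 10 members each, beside 84 and 111 other peaks, and TAF11L and SNAR had 8 each, beside 14 and 19. Values at near-identical copies are uncertain for the reason given at the transfer RNA units. The 3 ELOA2 and ELOA3 copies, for elongin A relatives, had 6 members on chromosome 18 and no other peak.

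The families with most genes, the zinc finger genes and the olfactory receptors, differed. The 670 ZNF genes, mostly zinc finger repressors in tandem arrays, had 2 members beside 4550 other peaks, both at ZNF595, so that 0.0439% of their KDM2A peaks were members, against 0.280% over all. The 861 olfactory receptor genes and pseudogenes had 9 members beside 1277 other peaks, all at OR2A copies on chromosomes 6 and 7, so that 0.700% of their KDM2A peaks were members.

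Most members lay outside genes. Inside an annotated gene of any class lay 472 (35.7%, 33.1 to 38.3%), against 59.2% of the other peaks. Inside protein-coding genes lay 259 (19.6%, 17.5 to 21.8%), against 44.5% of the other peaks. More than 500 kb from any protein-coding gene lay 457 (34.5%, 32.0 to 37.2%), against 6.21%. Pseudogenes were overlapped by 64 members (4.84%, 3.75 to 6.14%), against 1.30%, and transcribed pseudogenes by 72 (5.44%, 4.28 to 6.80%), against 1.02%. For long non-coding RNA genes the order was the other way, 124 members (9.37%, 7.86 to 11.1%) against 16.3% of the other peaks. The members' intervals exclude the share of the other peaks in all 6 of these comparisons, and they cover counting error only. The excess at pseudogenes was not particular to the members. Of the 2871 peaks under 600 bp with a Pileup of 15 to 19, 5.2% overlapped a pseudogene and 5.7% a transcribed pseudogene. Both values lie inside the members' intervals. For the gene, distance and long non-coding RNA comparisons, the share of these 2871 peaks lies between the members' interval and the other peaks. No member overlapped a snoRNA gene, which allows a share of up to 0.227%, against 0.0105%, and 1 overlapped a miRNA gene, MIR1299 on chromosome 9, against 0.0327%.

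Within 2 kb of gene ends the members were about as frequent as the other peaks, and within 500 bp of a listed start they were less frequent. Within 2 kb of an end of a protein-coding gene lay 80 members (6.05%, 4.82 to 7.47%), against 6.42%. The nearest end was the start in 28 of the 80 and the opposite end in 22, and for 30 the strand is not listed in the table used. Starts on chromosome 8 were not used here. Within 2 kb of a listed start lay 38 of 1243 members (3.06%, 2.17 to 4.17%), against 3.65% of the other peaks. Within 500 bp lay 8 of 1243 members (0.644%, 0.278 to 1.26%), against 1.43% of the other peaks. Peaks under 600 bp with a Pileup of 15 to 19 had 1.16%, inside the members' interval. The lower share at starts was thus not particular to the members, and it rests on 8 of them. Among peaks within 500 kb of a protein-coding gene the order at gene ends turned round: 80 of 866 members (9.24%, 7.39 to 11.4%), against 6.84% of the other peaks there. The share inside genes kept its order on that subset, 29.9% of members (26.9 to 33.1%) against 47.4%. Starts were not compared on that subset.

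The 8 members at starts each lay at another gene. CTAGE15 had the highest, with Pileup 31 and fold 4.84, 138 bp from the gene. At PTMA, which encodes the abundant nuclear protein prothymosin alpha, the member at chr2:231708644-231708840 had Pileup 24, fold 1.74 and an FDR of 0.437. ARHGEF35, TRIM74, SPDYE3, UPK3BL2, FANK1 and LOC124905368 had Pileups of 26, 21, 26, 20, 20 and 25. The 8 Pileups thus ranged from 20 to 31, and all 8 stood on a background of 4 or more.

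By Pileup, the 15 genes with the highest members at an end were again mostly family copies. LOC107986800 on chromosome 7 led with a Pileup of 78 (fold 1.43) at 1106 bp from its end. FAM90A12 had 69, LOC101929601 in the REXO1L array 68, and TAF11L9 and TAF11L10 had 51 and 48. TAF11L genes resemble TAF11, a subunit of the general transcription factor TFIID. LOC124900996 had 47, LOC124900994 40, and FAM90A22, FAM90A23, FAM90A10 and FAM90A24 had 37, 34, 34 and 33. TAF11L5 had 36 and LOC107987020 had 33.

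Only TPM1 and KHSRP among these 15 are genes with well-known functions outside such families. TPM1 encodes alpha-tropomyosin, an actin-binding protein, and its member at chr15:63042914-63043064 had Pileup 36 over 18.1, fold 1.94 and FDR 0.116. KHSRP encodes an RNA-binding regulator of splicing and decay. Its member at chr19:6411323-6411681 lay 1600 bp from the gene's end and over the transcribed pseudogene LOC390877, with Pileup 33 over 3.02, fold 8.45 and FDR 3.35e-18. The KHSRP member is the only one of the 15 with low background.

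In all, 241 of 18973 protein-coding genes (1.27%) had a member inside or within 2 kb, and 39 had 2 or more. Overlapping genes were each counted for the same member. The PCDHGA and PCDHGB genes of chromosome 5 among the 241 all share a single peak of Pileup 22 and fold 5.93. The genes with most members were chosen after their values were seen. TTC34 had 12, and KATNAL2, a relative of the microtubule-severing katanin that spans the ELOA3 copies, had 11 with Pileups of 28 to 65. NBPF1 had 9 with Pileups of 20 to 33. C1QTNF3, a secreted C1q-like protein that overlaps GUSBP18, had 9 with 20 to 60. LPA, whose product apolipoprotein(a) is built of repeated kringle domains, had 9 with 22 to 42. KMT2C, a methyltransferase of lysine 4 on histone H3, had 6 with 20 to 36.

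**Figure D4:**
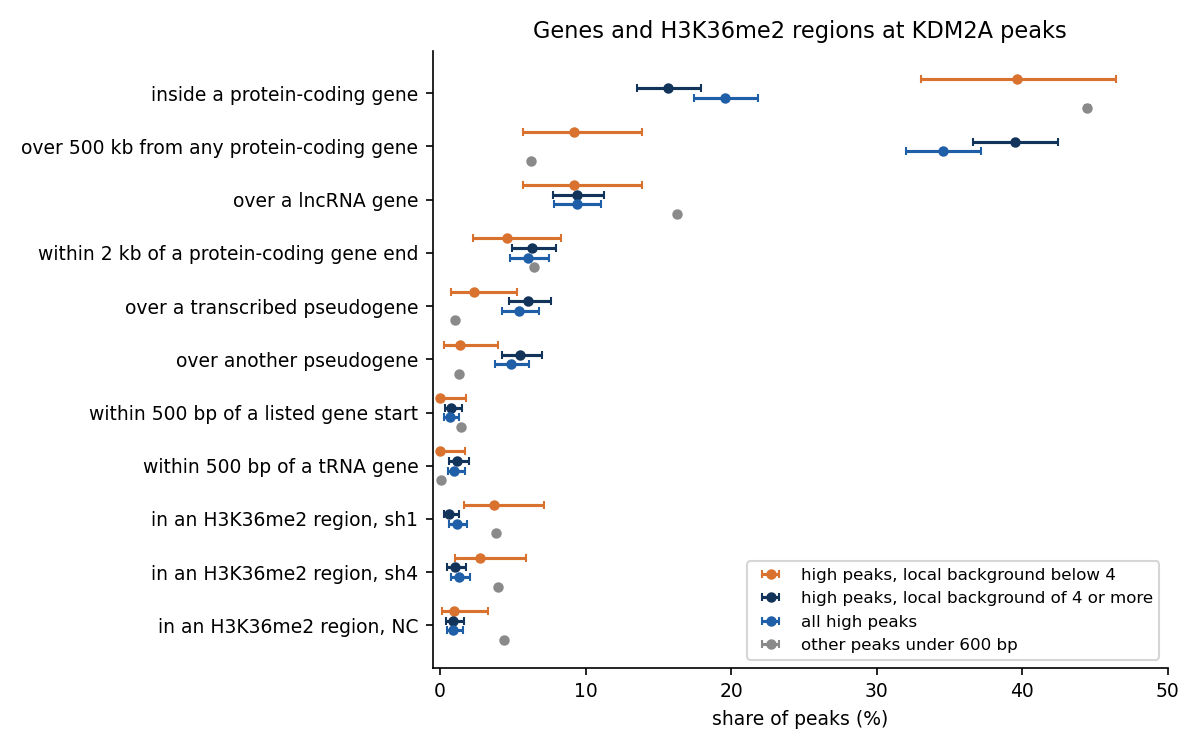
Share of peaks (%) at genes and in H3K36me2 regions for high KDM2A peaks with low background (orange), with high background (navy), all high peaks (blue) and the other peaks under 600 bp (grey), with exact 95% intervals for counting error. High peaks with low background lie near the grey points for genes, at 39.6% against 44.5%, and those with high background lie away from them, at 15.6%.

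The 217 members with low background were placed more like the other peaks. Inside protein-coding genes lay 86 of them (39.6%, 33.1 to 46.5%), an interval that includes the 44.5% of the other peaks, and over 500 kb away lay 20 (9.22%, 5.72 to 13.9%). In members with high background these shares were 15.6% (13.6 to 17.9%) and 39.5% (36.6 to 42.5%). At gene ends the low class had 10 (4.61%, 2.23 to 8.31%). Within 500 bp of a listed start it had 0 of 205, which allows a share of up to 1.46%, so a share equal to the 1.43% of other peaks was not excluded at this number. All 217 had an FDR under 0.05, which a Pileup of 20 or more over a background below 4 fixes in advance.

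Some members of the low class, named here after their values were seen, lay inside genes. In SIPA1L3, which encodes a protein of cell polarity, the member at chr19:38065684-38066148 had Pileup 29 over 2.56 and fold 8.42. In UBAP2, a ubiquitin-associated protein gene, Pileup was 29 and fold 7.74. In BLNK, an adaptor of B cell receptor signalling, Pileup was 27 and fold 7.53. In VTI1A, a SNARE of vesicle fusion, Pileup was 27 and fold 7.26. The highest fold of all members, 8.83, was at chr19:23622587-23622973, 30021 bp from the zinc finger gene ZNF675, with Pileup 27 over the genome-wide background of 2.17. The background was taken from the 10000 bp window at SIPA1L3 and BLNK. At UBAP2 the background was assigned to the 1000 bp window, though its value is also whole in steps of the 10000 bp window. At VTI1A it came from the 151 bp window and rests on 3 input fragments, and the exact interval of Pileup over background ran from 2.91 to 48.6. Of the 217 members with low background, 66 took it from the 151 bp window, with 3 or 4 input fragments each.

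Genes of 10 lists, for neural development, signalling, chromatin and other cell types, held too few members to be told apart from all protein-coding genes. Of their 298 genes, 2 had one (0.671%, 0.0814 to 2.40%), and that interval includes the 1.27% of all protein-coding genes. That 1.27% counts overlapping genes separately. DACH1, a transcription factor of neural progenitors, was 1 of 21 in the list of progenitor markers, with a member at chr13:71781261-71781580 of Pileup 20 and fold 4.36. ASH1L, which methylates lysine 36 of histone H3, was 1 of 23 among H3K36 methylation enzymes and readers, with a member at chr1:155489559-155490037 of Pileup 20 and fold 6.56. The lists for neurogenesis (37 genes), axon guidance and synapse (30), MAPK signalling (63), Polycomb (27), HOX genes (39), pluripotency (19), other germ layers (20) and blood, liver and muscle (19) had none, where a share of 1.27% would give less than 1 gene in any of them. Other KDM2A peaks were at 58 of the 63 MAPK genes, 37 of the 37 neurogenesis genes and 18 of the 21 progenitor markers. They were as common in lists of other cell types, at 19 of 19 pluripotency genes and 17 of 19 genes of blood, liver and muscle. These counts thus do not set neural or MAPK genes apart, and the share of all protein-coding genes with such a peak is not given here.

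H3K36me2, which the rule did not use, rarely covered the members. In sh1, 15 members overlapped one of the 19501 deposited H3K36me2 regions (1.13%, 0.636 to 1.86%), against 3.87% of the other KDM2A peaks. In sh4, 17 overlapped one of 21493 regions (1.28%, 0.750 to 2.05%), against 3.97%. In NC, 12 overlapped one of 19691 regions (0.907%, 0.470 to 1.58%), against 4.39%. Each interval lies below the share of the other peaks, and the 3 intervals overlap one another. Of all members, 36 lay in a region of at least 1 library (2.72%, 1.91 to 3.75%), against 11.0%. Low overlap was not particular to the members. Among the 2871 peaks under 600 bp with a Pileup of 15 to 19 it was 1.46% in sh1, 1.67% in sh4 and 1.53% in NC. Each of these lies inside the members' interval, while their share for at least 1 library, 4.14%, lies above it. The median distance from a member to the nearest region was 568160 bp in sh1, 492031 bp in sh4 and 551967 bp in NC, against 105724, 105864 and 67292 bp from the other peaks.

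By background, the classes stood furthest apart in sh1. Of the 217 members with low background, 8 overlapped a region in sh1 (3.69%, 1.60 to 7.13%), 6 in sh4 (2.76%, 1.02 to 5.92%) and 2 in NC (0.922%, 0.112 to 3.29%). Of the 1106 members with high background, 7 did in sh1 (0.633%, 0.255 to 1.30%), 11 in sh4 (0.995%, 0.498 to 1.77%) and 10 in NC (0.904%, 0.434 to 1.66%). The intervals of the classes are apart in sh1 and overlap in sh4 and NC, and the 3 intervals of the low class overlap one another. Within 500 kb of a protein-coding gene the shares were 1.50% in sh1, 1.50% in sh4 and 1.39% in NC, against 3.86, 3.87 and 4.45% of the other peaks.

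Only 3 members lay in a region of all 3 libraries (0.227%, 0.0468 to 0.661%), against 0.0643% of the other peaks. A pair of them shared 1 region over DUX4, the double homeobox gene of the D4Z4 repeat at the end of chromosome 4. They were chr4:190177610-190178020, with Pileup 133 over 98.2, and chr4:190178696-190178868, with Pileup 78 over 39.1. The H3K36me2 fold of that region was 2.70 in sh1 (1006 immunoprecipitate and 369 input reads, interval 2.39 to 3.05). It was 2.88 in sh4 (1086 and 373 reads, 2.56 to 3.25) and 2.91 in NC (1028 and 348 reads, 2.57 to 3.29). The region was called separately in each library and is 3800 bp long in sh1, 3800 bp in sh4 and 3400 bp in NC. The 3 folds lie within one another's counting intervals.

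The other such member, at chr18:108944-109394, had Pileup 69 over 35.3 and lay 35630 bp from TUBB8B, a beta-tubulin gene. The H3K36me2 fold of its region was 3.06 in sh1, 3.10 in sh4 and 4.57 in NC. The authors list the FDR of this region at 0 in each library, so its reads could not be recovered and no interval is given. Each region is 3800 bp long. Both hairpin folds were below that of NC, a difference with no replicate check.

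Regions of 1 or 2 libraries held the rest. Counted by region, with the DUX4 and TUBB8B regions included, sh1 had 13, sh4 15 and NC 6. In sh1, a pair of members with Pileups of 58 and 43 shared a region on chromosome 20 of fold 1.20 (1.16 to 1.24), 193064 bp from DEFB115, a beta-defensin gene. In sh4, a pair in KMT2C with Pileups of 31 and 29 shared a region of fold 1.26 (1.09 to 1.45). In NC, 6 of the 12 members shared 1 region of 13800 bp at chr1:234773601-234787400, 170322 bp from IRF2BP2, a transcriptional corepressor gene, with an H3K36me2 fold of 1.17 (1.07 to 1.27). Also in NC, the chromosome 16 member of Pileup 157 lay in a region of fold 1.60.

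Regions of a hairpin and of NC, called separately and unequal in extent, held 2 further members. Near GRB14, an adaptor gene of receptor tyrosine kinases, the H3K36me2 fold was 1.82 in sh1 (1.44 to 2.31) over 5400 bp and 2.18 in NC (1.66 to 2.89) over 4600 bp. In MCTP1, a calcium-binding membrane protein gene, it was 1.63 in sh4 (1.26 to 2.12) over 5000 bp and 2.03 in NC (1.42 to 2.94) over 2000 bp. These folds are over different stretches, so they are given side by side without a comparison. The DACH1 and ASH1L members lay in regions of sh1 alone, of fold 1.65 (1.20 to 2.27) and 1.33 (1.12 to 1.59), as did the BLNK and VTI1A members, of fold 1.36 and 1.46. A region called in 1 library is not shown to be absent from another, because the lists hold called regions only.

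**Figure D5:**
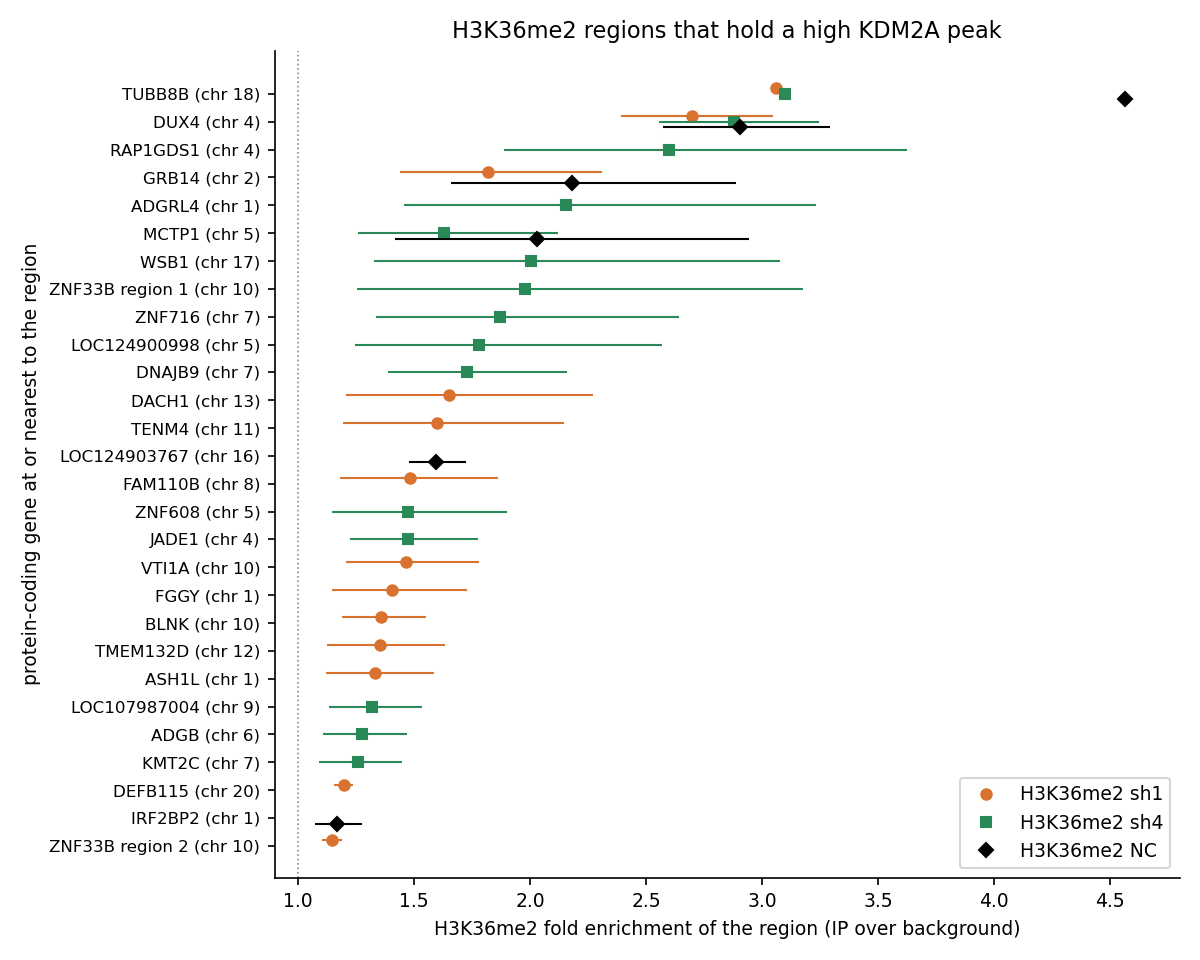
H3K36me2 fold enrichment (linear ratio) of each deposited region that holds a high KDM2A peak, in sh1 (orange circles), sh4 (green squares) and NC (black diamonds), by the protein-coding gene at or nearest to it. Lines are exact 95% intervals for counting error from recovered reads, absent at TUBB8B. Regions of all 3 libraries are seen at TUBB8B and DUX4 alone.

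The limit of 20 cut through a continuous range. The 234 members with a Pileup of exactly 20 had a median fold of 2.77 and a median local background of 6.57. The 296 peaks with a Pileup of 19 had 2.98 and 5.72. At the length limit, the 5 longest members had Pileups of 21 to 26, and the 5 shortest peaks of 600 bp or more with a Pileup of 20 or more had 22 to 31. In all, 76 peaks on the same sequence were high enough but 600 bp or longer.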

How the data were processed

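The 8 samples are 4 immunoprecipitates with a deposited peak list and 4 inputs that were not analysed here. Per the submitters' processing notes, Bowtie 1.1.2, MACS2 and SICER were used with builds hg38 and GRCh38; which tool made which list is not given in the sources used here, nor is the handling of reads that match several places or of duplicates. In the KDM2A list the deposited signal is the Pileup, counted in stacked fragments, the deposited fold is a linear ratio to local background, and the p-value and FDR are the authors'. In the H3K36me2 lists the deposited fold enrichment is a ratio of immunoprecipitate to background per region, with the authors' p-value and a deposited score computed from the fold, which was not used. No FDR limit had been applied to the KDM2A list, whose FDR reached 0.869. Library totals are not in the lists, so depth is unknown.

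Local background was recovered as (Pileup + 1) / fold - 1. The Poisson p-value it gives differed from the deposited one by at most 0.000116 on the log10 scale. It moved in whole steps of 0.953, taken as the worth of 1 input fragment in 151 bp. Background windows of 151, 1000 and 10000 bp and the genome-wide value were told apart by their step. The step had to be within 0.02 of a whole number for 10000 bp and within 0.01 for the others. A value that met the limit for several windows was given to the shortest, so some 10000 bp backgrounds can be listed under a shorter window. The fold and p-value of an H3K36me2 region together gave its reads, except in 3 regions of sh1, 6 of sh4 and 5 of NC whose p-value is listed at 0. In the others 100% of immunoprecipitate values came within 0.01 and 100% of input values within 0.05 of a whole number. The recovery of H3K36me2 reads was tested on simulated regions. The recovery of the local background was checked against the deposited p-values only, and the assignment of its windows was not simulated.

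Gene positions and promoters came from RefSeq tables of GRCh38.p14, 56080 genes on chromosomes 1 to 22. A peak was placed by its midpoint for distances and by any shared base for overlaps. Shares have exact (Clopper-Pearson) 95% intervals, which cover counting error only; a count of 0 allows up to 3. Without molecular identifiers, reads are not independent molecules.

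Named items were the 15 members of highest Pileup, the 8 clusters with most members, the 15 genes with the highest member within 2 kb of an end, list genes with a member, members in H3K36me2 regions (5 per library and those in all 3), and the values at the limits. Others are marked where they appear. The members, lists and tests were chosen with earlier results of these data known. Alternatives were other limits, windows, gaps, gene classes and overlaps, and 2 more chosen after seeing the data. Python 3.11.15, pandas 2.3.3, NumPy 2.4.6, SciPy 1.17.1 and matplotlib 3.10.9 were used.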

Additional observations from a re-analysis of the deposited data

How the results depend on the processing

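Of 50 alternative values, 24 stayed near the reported one and 26 moved. The 1323 members became 630 with a Pileup of 25 or more, 786 with FDR under 0.05 and 839 with each cluster counted once. Of members at gene ends (6.05%), a 1 kb window gave 3.48% (other peaks 3.68%), a 5 kb window 12.2% (13.2%), all annotated genes 21.0%, the 217 members with background below 4 gave 4.61% and those within 500 kb of a gene 9.24%. Inside protein-coding genes (19.6%), a Pileup of 25 gave 16.7%, all annotated genes 35.7% (other peaks 59.2%), background below 4 gave 39.6% and within 500 kb 29.9%. In clusters (49.8%), a Pileup of 25 gave 55.4%, FDR under 0.05 gave 31.0%, gaps of 5 and 50 kb gave 42.0 and 67.0%, and the 217 members with low background, joined only to each other, 0%. For H3K36me2 in sh1, background below 4 gave 3.69%, regions above the median fold of the NC list 0.454% and a region within 10 kb 3.48% (other peaks 13.5%). In sh4, background below 4 gave 2.76% and a region within 10 kb 3.63% (13.9%). In NC, stronger regions gave 0.454% and a region within 10 kb 4.08% (15.4%). Chromosome 22 (1.38%) remained the highest at a Pileup of 25 with 0.527% and with clusters counted once with 0.539%. The cause was not tested.

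No paired analysis was possible because each group holds 1 library. With no replicate, no replicate could be left out. The H3K36me2 shares rest on 12 to 17 members, and the folds of 66 members with low background on 3 or 4 input fragments. The placing of reads that match several copies is not given in the sources used here, so a Pileup at any 1 copy is uncertain. H3K36me2 lists hold called regions only, and the antibody signal of KDM2A after knockdown was not analysed here.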
